A study of Mus musculus with 14 samples.

Results

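Potassium channel genes were examined in RNA-seq of granule neuron progenitors (GNPs) from the postnatal day 7 mouse cerebellum. The set held every protein-coding gene in the GENCODE annotation whose symbol begins with Kcn, continues with a family letter or letters and ends in a number. It comprised 93 of the 41381 genes in the table, of which 77 encode subunits that belong to pore families and 16 encode auxiliary subunits. The 14 libraries carried 3 labels, WT (n = 5), Het (n = 5) and Hom (n = 4), for the chromatin remodeller gene Chd7. According to the study, Het mice were Atoh1-Cre::Chd7 f/+ and Hom mice Atoh1-Cre::Chd7 f/f, while WT mice carried Chd7 f/f without the Cre transgene. Among the WT libraries, 3 were labelled wild type for Chd7 and the other two negative for Atoh1-Cre, and strains were written as C56Bl6/J and C57BL/6. Atoh1-Cre acts in the rhombic lip lineage that makes granule cells, and the study found Chd7 protein remaining in the posterior lobe of mutants, which it puts down to probably less efficient recombination there. Cells were isolated fresh on a Percoll gradient and not sorted, and sex was not distinguished. The sources do not say which libraries came from separate animals, so p-values measure only the spread between these samples.

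The label of a library was checked against Chd7 itself. Its level was 120.81 to 272.06 TPM in the libraries labelled WT, 136.77 to 181.3 in Het and 125.63 to 185.39 in Hom. On the log2 scale Hom minus WT was -0.11 (SE 0.20, adjusted p = 0.862), being 0.41 in sequencing batch 1 and -0.77 in batch 2. The gene-level value counts all exons and checks the deletion only in part, but in batch 1 it ran against the labels, so every direction given here rests on the labels alone. All 12 proliferating progenitor markers listed were tested, and their summed level was 2190 to 2880 TPM in WT, 2330 to 3130 in Het and 2590 to 2970 in Hom, with a median change of 0.14 in Hom against WT and 1 marker called higher. The 13 granule neuron markers summed to 4240 to 5890 TPM in WT, 4520 to 4980 in Het and 3940 to 4590 in Hom. Their median change in Hom against WT was -0.22, with 3 of 12 tested called lower and 1 higher. Markers of other cells were present too. Of 5 choroid plexus markers 2 were called higher in Hom against WT and 0 lower, while their median change was -0.13. They summed to 583 TPM in WT 1 and to 70.3 to 246 TPM in the rest. Of 7 inhibitory interneuron markers 1 was called lower and 0 higher, while their median change was 0.12. Endothelial markers summed to 19.5 to 32.7 TPM in WT 1, WT 2, WT 3 and Het 3 and to 106 to 431 TPM in the other 10 libraries. Astroglial markers summed to 422 to 1820 TPM in WT, 563 to 1140 in Het and 319 to 665 in Hom. These are bulk samples, in which fewer cells of a type and less RNA per cell cannot be told apart.

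Potassium channels let potassium leave or enter the cell down its electrochemical gradient and thereby set the resting potential and shape firing. Voltage-gated families open on depolarisation, inward rectifiers pass current near rest and include G protein-gated and ATP-sensitive forms, tandem-pore channels carry leak, and calcium- or sodium-activated channels follow the ion inside the cell. Modifier subunits form no channel alone, and auxiliary subunits alter gating and traffic. As granule cells leave the cell cycle and mature they are known to acquire an A-type current, a leak conductance and G protein-gated inward rectification.

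The start regions of 4 genes that changed between WT and Hom are printed to show the sequence in front of the genes the results turn on, Kcnj3 and Kcnj6 as partners in a channel and Kcnd2 and Kcnk13 as the largest changes in each direction. Each run covers 250 bases before to 50 after the RefSeq start (GRCm38.p6), 5′ to 3′ on the strand of the gene, and capitals mark matches to the E-box letters CANNTG on either strand. The windows are chr2:55435720-55436019, plus strand for Kcnj3; chr16:94997647-94997946, minus strand for Kcnj6; chr6:21215096-21215395, plus strand for Kcnd2; and chr12:99964249-99964548, plus strand for Kcnk13.
Kcnj3: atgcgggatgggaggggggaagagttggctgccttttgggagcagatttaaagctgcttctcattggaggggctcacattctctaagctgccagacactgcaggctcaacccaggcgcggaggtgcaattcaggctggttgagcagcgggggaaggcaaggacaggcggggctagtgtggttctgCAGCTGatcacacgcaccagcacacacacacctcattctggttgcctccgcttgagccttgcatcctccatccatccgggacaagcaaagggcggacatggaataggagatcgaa
Kcnj6: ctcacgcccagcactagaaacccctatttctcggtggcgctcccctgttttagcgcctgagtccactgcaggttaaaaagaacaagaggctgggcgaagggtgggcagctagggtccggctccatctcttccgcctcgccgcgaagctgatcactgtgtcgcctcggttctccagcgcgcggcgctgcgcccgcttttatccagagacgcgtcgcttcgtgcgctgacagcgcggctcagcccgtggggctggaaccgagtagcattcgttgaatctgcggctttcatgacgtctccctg
Kcnd2: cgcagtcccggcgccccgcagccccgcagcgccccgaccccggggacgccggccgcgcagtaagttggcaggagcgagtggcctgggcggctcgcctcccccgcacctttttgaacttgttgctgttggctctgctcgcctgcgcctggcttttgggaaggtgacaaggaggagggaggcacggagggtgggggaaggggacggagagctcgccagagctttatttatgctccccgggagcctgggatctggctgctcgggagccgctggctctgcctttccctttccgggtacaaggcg
Kcnk13: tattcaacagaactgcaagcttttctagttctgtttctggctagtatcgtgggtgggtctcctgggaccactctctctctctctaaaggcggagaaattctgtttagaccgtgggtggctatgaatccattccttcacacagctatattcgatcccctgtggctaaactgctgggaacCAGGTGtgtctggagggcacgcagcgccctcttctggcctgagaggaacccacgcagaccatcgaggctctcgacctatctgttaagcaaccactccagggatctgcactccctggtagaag
Windows were found for 68 of the 93 genes, and Kcne1 had none. For each member only the window nearest its annotated start was used. The windows of all genes can include several starts of a gene, so the shares below compare unlike sets. CANNTG was present in 72.1% of the member windows and in 72.3% of the 32817 distinct windows in the table. The form CAGCTG, which is contained in CANNTG and found once in front of Kcnj3, occurred in 25.0% of member windows and 16.3% of all. GGGCGG, searched on both strands, occurred in 50% of member windows against 35.6% of all and TATAAA in 4.41% against 13.6%. Median GC content was 60% in member windows and 52.7% in all windows. Kcnj3 had 1 CANNTG and Kcnk13 had 1, whereas the Kcnj6 and Kcnd2 windows had none. GC content was 57.7% for Kcnj3, 62.0% for Kcnj6, 68.7% for Kcnd2 and 52.7% for Kcnk13. A match is a run of letters and nothing more.

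Channel genes were expressed over a wide range. Expression is given as TPM, a share of all transcripts that scales for transcript length so that genes can be compared with each other. Over all libraries 8 genes had a mean of at least 50 TPM, 22 of at least 10, 31 from 1 to 10 and 40 under 1. The top 15 genes held 75.9% of the summed TPM of the set. Voltage-gated pore genes held 36.0% of it, auxiliary genes 22.7%, tandem-pore genes 18.9%, inward rectifiers 18.0%, calcium- or sodium-activated channels 3.26% and modifier genes 1.1%. Among the highest means was that of Kcnk1 (68.6 TPM), a weakly rectifying leak channel. Others were those of Kcnmb4 (60.8 TPM), a beta subunit of the large-conductance calcium-activated (BK) channel, and Kcnk9 (56.7 TPM), an acid-sensitive leak channel. Kcnmb4 stood far above its pore partner Kcnma1, which had a mean of 5.35 TPM.

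**Figure D1:**
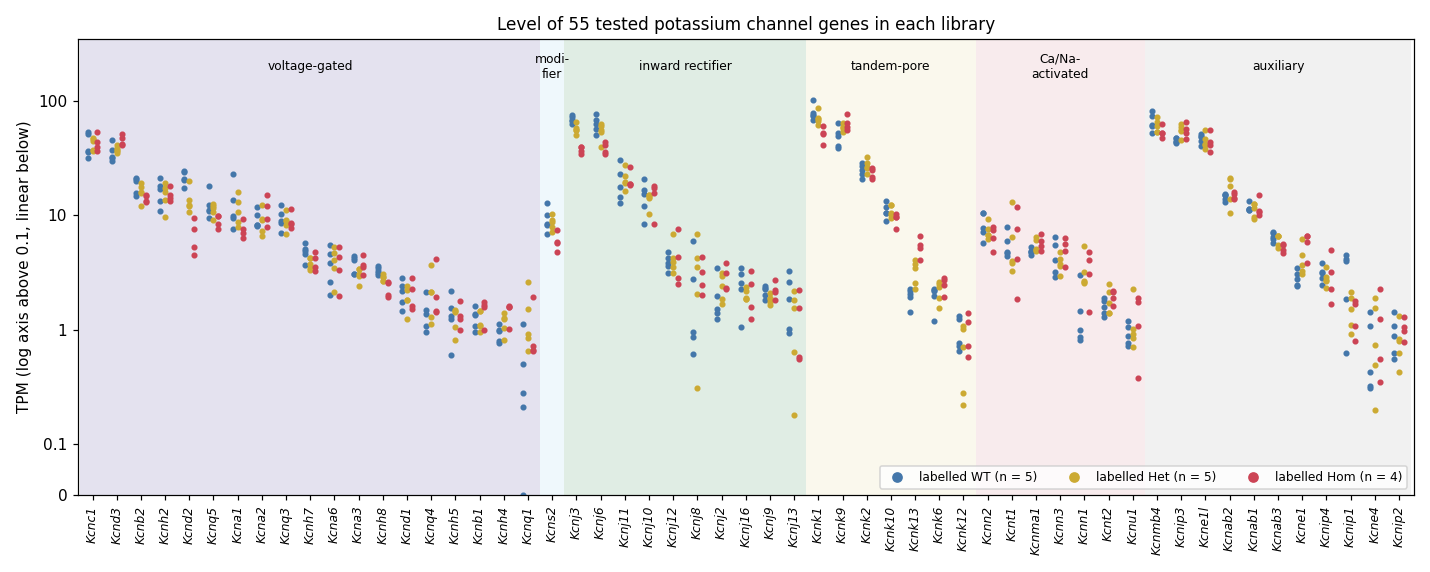
TPM (vertical axis, logarithmic above 0.1 and linear below) of 55 tested potassium channel genes, with each point a library coloured by its label and genes ordered by class and mean. Kcnd2 and Kcnj3 show Hom points below every WT point, and Kcnk13 shows them above, while most other genes have overlapping groups.

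A gene was tested when at least 4 libraries reached 1 TPM, which 57 of the 93 did (61.3%, against 41.9% of all genes). Of the other 36, 30 stayed under 1 TPM in every library and 6 reached it in 1 to 3 libraries, with the highest single value 1.88 TPM, for Kcne2 in WT 1. No member was at 0 in every library. The untested genes included 9 of the 10 modifier genes, Kcnj5, which encodes a G protein-gated subunit (mean 0.159 TPM), and Kcnk3, the close relative of Kcnk9 (mean 0.503 TPM). The read depth behind these values is unknown because TPM keeps none.

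Hom was compared with WT to ask which channel genes differ with the loss of Chd7, together with the Cre transgene that WT lacks. Of the 57 tested genes 5 fell, among them Kcnj3, Kcnd2, Kcnj6 and Kcnk1, and 2 rose (Kcnk13 and Kcne1) at an adjusted p under 0.05. Over all 17325 genes tested, 1.41% were lower and 1.27% higher, 2.68% in either direction, while the share among the members was 12.3%. Before adjustment p was under 0.05 for 12 members on the lower side and 7 on the higher, 33.3% of them, against 6.42%, 8.51% and 14.9% of all genes. The median change of the members was -0.02 on the log2 scale, beside 0.02 for all genes. In 10 members every Hom library was below every WT library of its own sequencing batch, and in 4 it was above, where 3.56% and 5.44% of all genes did so. Batch 1 held 8 libraries (WT 1 to 3, Het 1 to 3, Hom 1 and 2) and batch 2 held 6.

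**Figure D2:**
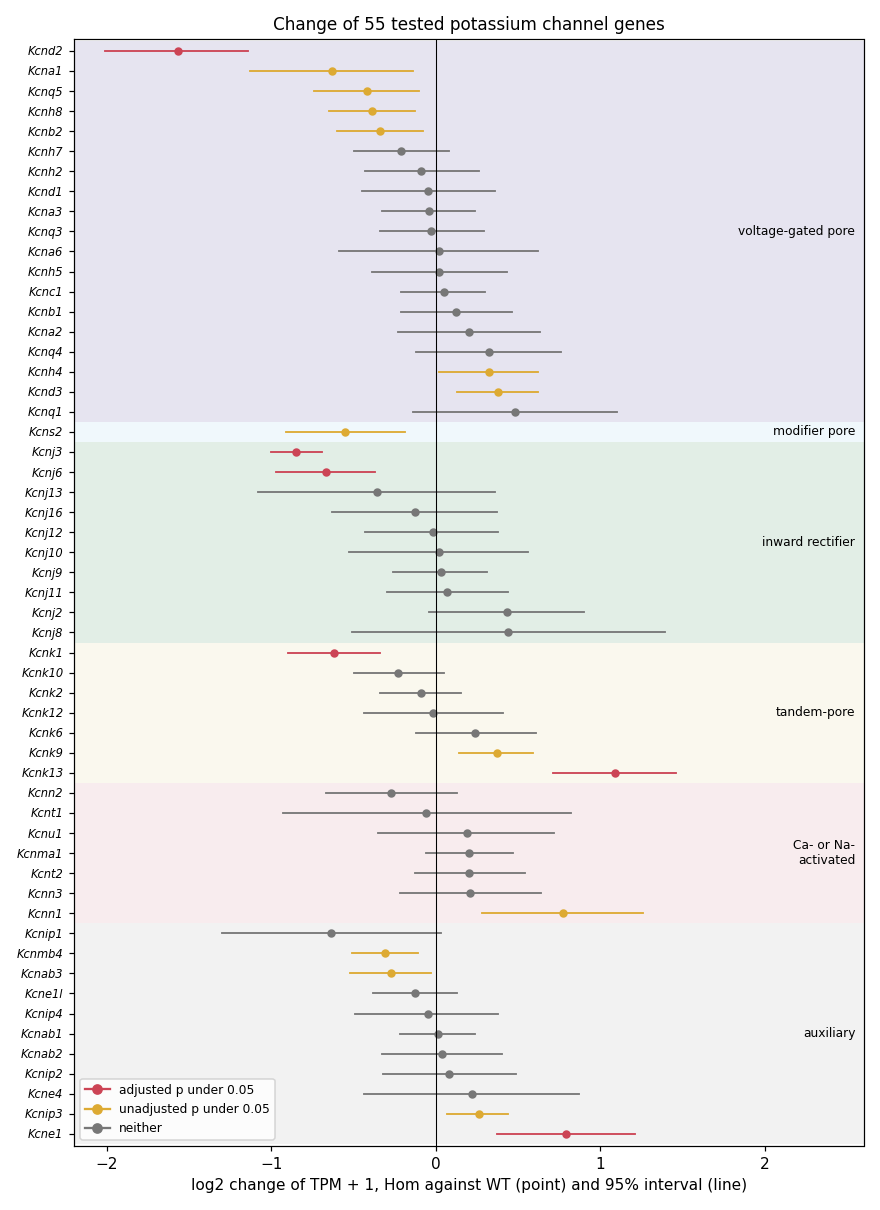
log2 change of TPM + 1 in Hom against WT (horizontal axis) with its 95% interval for 55 tested genes, grouped by class. Kcnd2, Kcnj3, Kcnj6 and Kcnk1 lie to the left of 0 and Kcnk13 and Kcne1 to the right with adjusted p under 0.05, and most other intervals cross 0.

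Among the inward rectifiers Kcnj3 and Kcnj6, both of the G protein-gated subfamily, had the highest levels and fell, and Kcnj9 and Kcnj5 of the same subfamily were low. Granule neuron markers, at a median of -0.22, moved in the same direction as the channel genes that fell, and their part in those changes was not tested. Kcnj3 (chr2:55435970-55598145, plus strand) encodes a subunit of the channel that beta-gamma subunits of inhibitory G proteins open. Its level was 62.79, 72.84, 75.54, 67.64 and 66.63 TPM in WT 1 to 5. Het 1 to 5 gave 55.94, 66.24, 58.22, 55.79 and 50.45 TPM, and Hom 1 to 4 gave 39.9, 39.71, 36.76 and 34.11. Each Hom library was below each Het and each WT library, and Het overlapped WT in part. The change from WT, 69.1 ± 5.09 (SD), to Hom, 37.6 ± 2.75, was -0.85 on the log2 scale (SE 0.071, 95% interval -1.0 to -0.69, adjusted p = 3.65e-05). Within batches it was -0.80 and -0.90, with adjusted p = 0.0186 in batch 1 and 0.0615 in batch 2, where fewer libraries entered. Kcnj3 also fell from Het to Hom, by 0.58 on the log2 scale (adjusted p = 0.00276), which 0.277% of all genes did in that comparison.

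Kcnj6 (chr16:94748636-94997701, minus strand) encodes the partner that co-assembles with the Kcnj3 product in neurons. Its level was 56.83, 68.69, 63.64, 50.88 and 77.16 TPM in WT 1 to 5 and 43.73, 35.82, 41.5 and 34.66 in Hom 1 to 4. Het gave 62.57, 53.78, 61.09, 39.51 and 56.0 TPM. All Hom values were below all WT values, and Het overlapped both. Hom against WT was -0.67 (SE 0.14, adjusted p = 0.0189), and -0.65 in batch 1 and -0.71 in batch 2 (adjusted p = 0.0624 and 0.267). By the exact Kruskal-Wallis test across the groups, called at 0.01, p was 0.0105. Adjusted p was 0.0703 without Hom 2 and 0.0637 without Hom 4. The ratio of Kcnj3 to Kcnj6 ran from 0.864 to 1.41 and overlapped between all groups. Kcnj9, a further G protein-gated subunit shown for its level only, was at 2.17 ± 0.24 TPM in WT and 2.23 ± 0.383 in Hom. The summed level of all 4 genes of the subfamily was 135 ± 12.5 TPM in WT, 114 ± 10.9 in Het and 78.9 ± 6.26 in Hom.

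The other inward rectifiers did not pass the test. Kcnj11, the pore of the ATP-sensitive channel of neurons, was at 19.8 ± 7.12 TPM in WT and 20.7 ± 4.0 in Hom, and its partner Abcc8 at 19.7 ± 2.12 and 21.4 ± 4.9. Kcnj8, the vascular form, and Kcnj10, the glial one, were picked out after their values were seen. Kcnj8 was at 0.31 to 0.95 TPM in WT 1 to 3 and Het 3 and at 2.03 to 6.82 TPM in every other library, the same libraries that were low and high in the endothelial markers. Kcnj10 ran from 8.33 to 20.83 TPM with all groups overlapping. The summed TPM of the 15 inward rectifier genes was 183 ± 12 in WT (165.1 to 195.2), 164 ± 8.53 in Het (154.2 to 177.1) and 129 ± 4.52 in Hom (125.2 to 135.8). That sum includes Kcnj3 and Kcnj6 and does not show a fall of the whole class. Of its 10 tested genes, 5 had a change below 0 in Hom against WT.

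**Figure D3:**
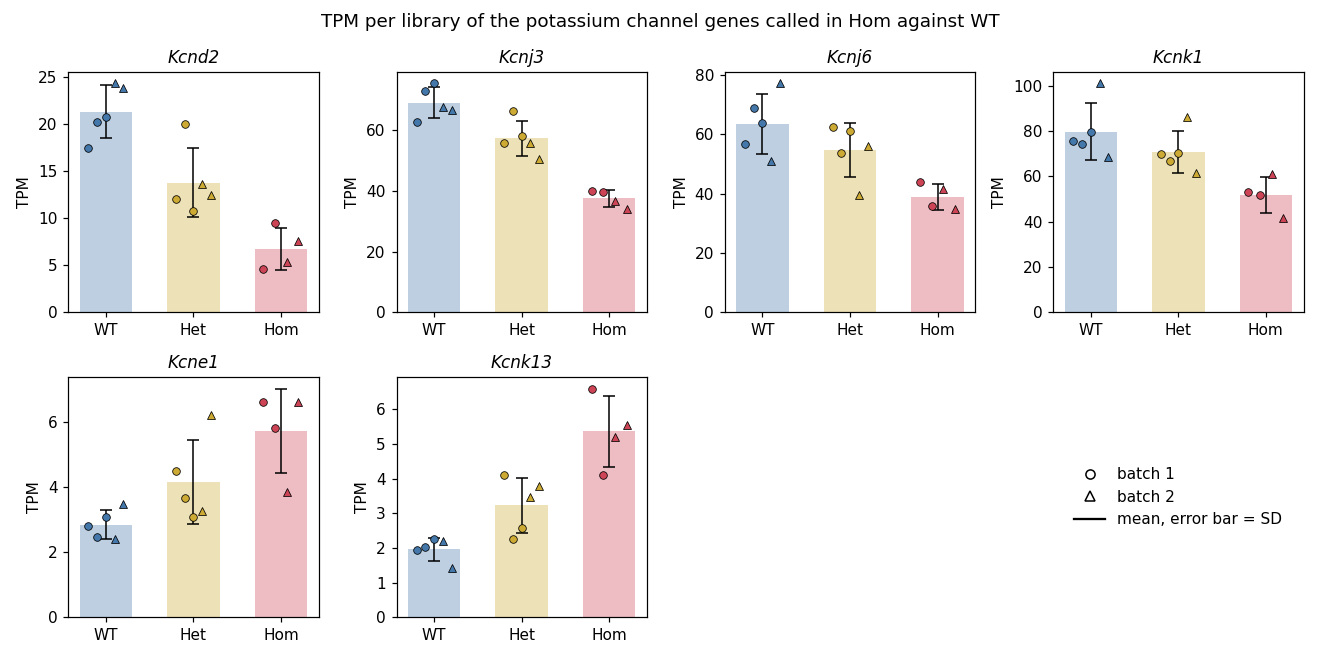
TPM per library of 6 genes called in Hom against WT, with bars for means, error bars for SD and symbols for sequencing batch. Hom points of Kcnd2, Kcnj3, Kcnj6, Kcnk1 and Kcne1 do not overlap WT points, and Kcnk13 rises from 1.42 to 2.25 TPM in WT to 4.09 to 6.59 in Hom.

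Of the A-type genes Kcnd2 fell and Kcnd3 did not pass the test. Kcnd2 (chr6:21215503-21729805, plus strand) encodes the subunit that carries the fast transient potassium current at subthreshold potentials. Its level was 17.47, 20.2, 20.68, 24.29 and 23.84 TPM in WT 1 to 5. Het libraries gave 12.02, 19.97, 10.78, 13.6 and 12.42 TPM and Hom libraries 4.55, 9.44, 5.28 and 7.55. Every Hom library was below every Het and WT library, and only Het 2 lay within the WT range. Hom against WT was -1.57 (SE 0.20, 95% interval -2.01 to -1.14, adjusted p = 0.000747), a mean of 21.3 ± 2.81 TPM against 6.71 ± 2.23. Batch 1 gave -1.42 (adjusted p = 0.102) and batch 2 -1.77 (adjusted p = 0.0615). Het against WT was -0.62 (adjusted p = 0.544) and Hom against Het -0.96 (adjusted p = 0.0648).

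Kcnd3 encodes the other main A-type pore and is the more abundant of the pair. Its level was 31.51, 29.85, 32.12, 45.33 and 37.42 TPM in WT 1 to 5 and 47.9, 51.67, 41.52 and 42.31 in Hom 1 to 4. Hom was higher in batch 1 by 0.66 (adjusted p = 0.0179) and by 0.02 in batch 2. The combined value was 0.38 (SE 0.11, adjusted p = 0.117), and it was 0.48 with adjusted p = 0.018 without WT 4. The difference between batches was -0.63 (unadjusted p = 0.00106, adjusted p = 0.127). The ratio of Kcnd2 to Kcnd3 was 0.536 to 0.677 in WT, 0.291 to 0.484 in Het and 0.095 to 0.183 in Hom, with no overlap between groups. Kcnd1, the remaining A-type gene, was at 2.14 ± 0.543 TPM in WT and 2.06 ± 0.621 in Hom. Of the A-type partners, Dpp6, which speeds the current, changed by 0.07 (adjusted p = 0.868) and Kcnip3, which encodes a calcium-binding partner also known as a transcriptional repressor, by 0.26 (adjusted p = 0.161). Kcnip1, another calcium-binding partner, also picked out after its values were seen, was at 4.02 to 4.5 TPM in WT 1 to 3 and at 0.62 to 2.15 TPM in every other library.

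Leak genes divided. Kcnk1 (chr8:125995170-126030685, plus strand) was at 75.55, 74.18, 79.44, 101.17 and 68.53 TPM in WT and 53.07, 51.62, 61.05 and 41.61 in Hom, with no overlap. The change was -0.62 (SE 0.13, adjusted p = 0.0216), -0.54 in batch 1 (adjusted p = 0.0138) and -0.71 in batch 2 (adjusted p = 0.298). Adjusted p was 0.0535, 0.0524, 0.053 and 0.0628 without WT 3, Hom 1, Hom 2 and Hom 4. Kcnk13 (chr12:99964499-100062682, plus strand), a halothane-inhibited channel that microglia are known to express, was at 1.93, 2.04, 2.25, 2.2 and 1.42 TPM in WT. It was at 4.09, 2.25, 2.57, 3.46 and 3.78 TPM in Het and 6.59, 4.09, 5.2 and 5.54 in Hom, so that Hom lay above WT throughout. It rose by 1.09 (SE 0.17, adjusted p = 0.00384), 1.02 in batch 1 and 1.19 in batch 2. Microglial markers summed to 135 to 313 TPM in WT and 210 to 318 in Hom, with a median change of 0.18 and 0 of 6 markers called. Their part in the change of Kcnk13 was not tested. Kcnk9 was at 49.1 ± 10.2 TPM in WT and 64.2 ± 9.38 in Hom. The change was 0.37 (adjusted p = 0.0961), and 0.44 with adjusted p = 0.0425 without WT 4. Kcnk2, a mechanosensitive and lipid-sensitive channel, changed by -0.09 (adjusted p = 0.769).

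The other voltage-gated genes named here did not pass the test. Kcnq5, which encodes a slow non-inactivating channel, changed by -0.42 (adjusted p = 0.198). Kcna1, a low-threshold delayed rectifier, was at 7.53 to 22.8 TPM in WT and 6.4 to 9.28 in Hom, with changes of -0.19 in batch 1 and -1.17 in batch 2. Kcnb2, a slow delayed rectifier, changed by -0.34 (adjusted p = 0.187) and Kcns2, a modifier that joins such channels, by -0.55 (adjusted p = 0.116). Kcnh8, of the ether-a-go-go family, was at 3.58, 3.0, 3.44, 3.12 and 3.28 TPM in WT and at 2.6, 1.94, 2.57 and 2.01 in Hom, with no overlap and adjusted p = 0.122. The Kruskal-Wallis test in its exact form, run across WT, Het and Hom together, gave p = 7.14e-05 for Kcnh8 and the same value for Kcnd2 and Kcnj3. It gave 5.55e-05 for Kcnk13 and 0.00897 for Kcns2. By that test at p under 0.01, 6 members were lower and 3 higher in Hom, where 2.22% and 2.42% of all genes were (4.65% together). Kcnh4, of the same family as Kcnh8, went from 0.934 ± 0.147 to 1.45 ± 0.288 TPM (adjusted p = 0.295, exact Kruskal-Wallis p = 0.0044). Kcnc1, whose channels allow fast spiking, changed by 0.05 (adjusted p = 0.91) and Kcnh2 by -0.09 (adjusted p = 0.864).

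**Figure D4:**
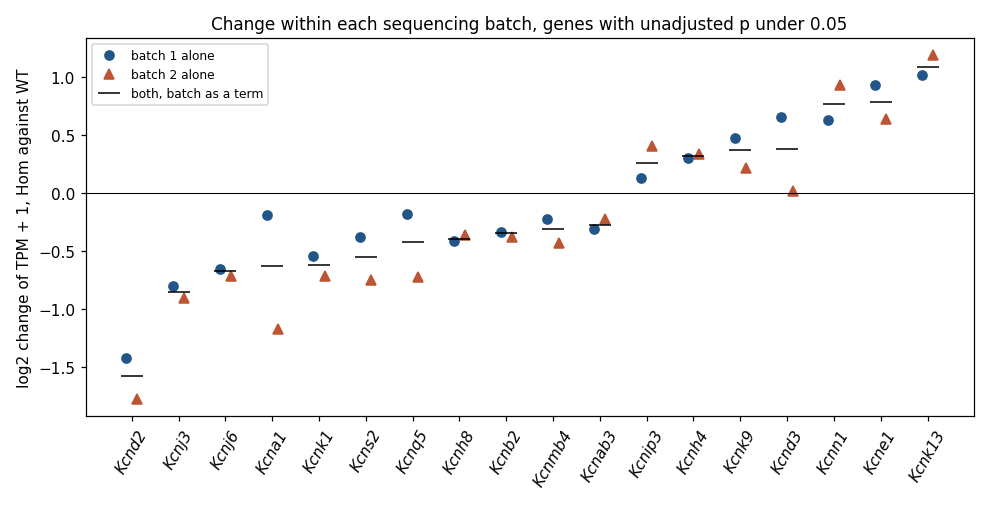
log2 change of TPM + 1 in Hom against WT within sequencing batch 1 (circles), within batch 2 (triangles) and in both with batch as a term (dashes), for 18 genes with unadjusted p under 0.05. Changes keep their sign in both batches, and Kcnd3 and Kcna1 differ most between them, at 0.66 and 0.02 and at -0.19 and -1.17.

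Among calcium- or sodium-activated channels 0 of 7 tested genes were called, and 1, Kcnn1, had an unadjusted p under 0.05. Kcnn1, a small-conductance channel, was at 0.86, 1.46, 0.82, 3.02 and 1.0 TPM in WT and at 1.44, 3.06, 4.77 and 4.04 in Hom, with overlap. It changed by 0.77 in Hom against WT (adjusted p = 0.104) and by 0.85 in Het against WT (adjusted p = 0.375). Kcnn2, a relative, changed by -0.27, Kcnma1 by 0.20, Kcnt1, a sodium-activated channel, by -0.06 and Kcnu1 by 0.19 (adjusted p = 0.54, 0.482, 0.971 and 0.797).

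Auxiliary genes showed 1 call of 11 tested. Kcne1 (chr16:92345982-92359468, minus strand), a single-span subunit that slows Kcnq1 channels, was at 2.8, 2.46, 3.1, 2.41 and 3.49 TPM in WT and 6.62, 5.84, 3.86 and 6.63 in Hom. It rose by 0.79 (SE 0.19, adjusted p = 0.0496), and 0.93 and 0.64 within batches. All Hom values were above all WT values. The call was kept without Het 5 or Hom 3, and leaving out any of the other 12 libraries ended it, with adjusted p from 0.0503 to 0.153 and changes from 0.70 to 0.85. Kcnmb4 changed by -0.31 (adjusted p = 0.115), Kcnab3, a cytoplasmic subunit of Kv1 channels, by -0.27 (adjusted p = 0.277), Kcnab2, its relative, by 0.04 and Kcne1l by -0.13 (adjusted p = 0.956 and 0.682).

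Endothelial and astroglial markers changed by a median of 1.56 and -0.86 in Hom against WT, with 0 called in each list. Their sums overlapped between WT and Hom. In batch 1, however, endothelial sums were 23.6 to 32.7 TPM in WT and 106 and 324 in Hom. Astroglial sums were 1150 to 1820 TPM in WT 1 to 3 and 525 and 521 in Hom 1 and Hom 2. In that batch neither the endothelial nor the astroglial level can be told apart from the label. Fits with the mean marker level as a covariate were added after seeing the data. With the endothelial level, Kcnj3 changed by -0.90 (adjusted p = 0.000181), Kcnd2 by -1.95 (adjusted p = 7.17e-05) and Kcnk13 by 1.18 (adjusted p = 0.0107). With the astroglial level the same genes changed by -0.91, -1.66 and 1.2 (adjusted p = 0.000722, 0.0127 and 0.0307). Kcnj6, Kcnk1 and Kcne1 gave -0.62, -0.60 and 0.69 with the endothelial level, with adjusted p = 0.0886, 0.0834 and 0.159. With the astroglial level they gave -0.88, -0.63 and 0.69, with adjusted p = 0.0257, 0.143 and 0.292. Kcnq5, Kcna1 and Kcns2 passed the threshold with the endothelial level, at -0.65, -1.0 and -0.76, and did not with the astroglial level, at -0.56, -0.70 and -0.48 (adjusted p = 0.245, 0.375 and 0.396).

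Het was compared with WT to show the loss of 1 Chd7 allele, together with the Cre transgene that WT lacks. No member was called, where 0.0% of all genes were lower and 0.00577% higher. Before adjustment 2 members lay below and 6 above WT with p under 0.05, beside 2.88%, 3.2% and, in either direction, 6.08% of all genes. Within both batches Kcnh8 was below WT in every Het library and Kcnn1 above, as 1.09% and 1.43% of all genes were. The 2 lower were Kcnj3, -0.27 (adjusted p = 0.37), and Kcnd2, -0.62 (adjusted p = 0.544). Higher were Kcnk13 (0.50), Kcnn1 (0.85), Kcne1 (0.40), Kcnk9 (0.27), Kcnip3 (0.28) and, named after its values were seen, Kcnq1 (0.69), with adjusted p from 0.375 to 0.814. Het and Hom share their WT libraries, so values are only placed side by side. Kcnj3 went from -0.27 in Het to -0.85 in Hom, Kcnd2 from -0.62 to -1.57, Kcnj6 from -0.22 to -0.67, Kcnk1 from -0.16 to -0.62, Kcnk13 from 0.50 to 1.09 and Kcne1 from 0.40 to 0.79. For Kcnip3 the values were 0.28 in Het and 0.26 in Hom, and for Kcnn1 0.85 and 0.77. Kcnj3 was the single member called in Hom against Het, where 0.277% of all genes were lower and 0.15% higher (0.427% together). Before adjustment 8 members were below and 2 above Het with p under 0.05, 17.5% of them against 3.13%, 3.05% and 6.18% of all genes. In 6 members every Hom library was below every Het library of its batch and in 1, Kcnd3, above, as in 2.23% and 2.4% of all genes.

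**Figure D5:**
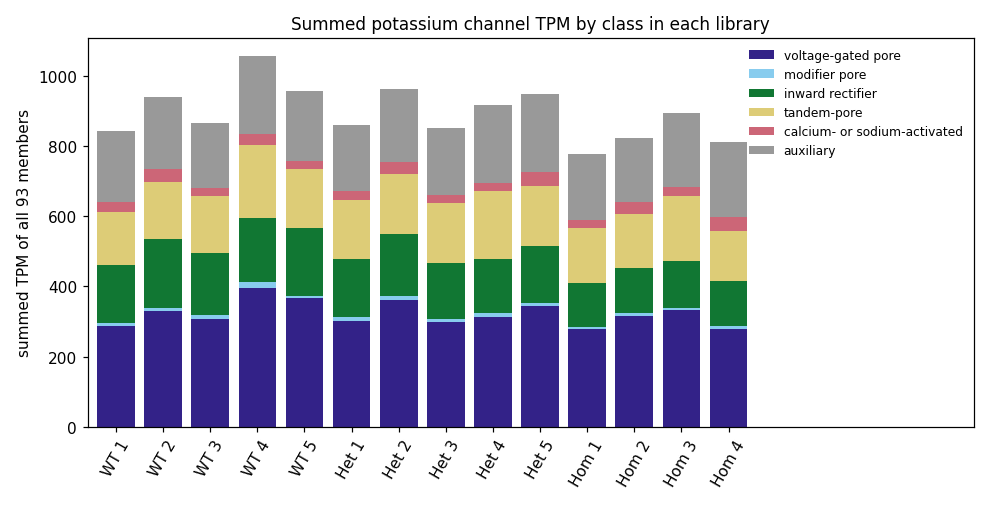
Summed TPM of all 93 potassium channel genes in each library (vertical axis from 0), stacked by class. Totals run from 843.2 to 1056.1 in WT, 852.1 to 963.6 in Het and 778.6 to 893.9 in Hom. The inward rectifier layer, which includes the called Kcnj3 and Kcnj6, is thinnest in Hom.

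Genes that work with potassium channels were followed as a separate list of 20, of which 17 were tested. In Hom against WT 1 was called lower and 0 higher, beside 1.41% and 1.27% of all genes tested. Dlg4, a scaffold of Kv1 channels, changed by -0.26 (adjusted p = 0.144). Abcc9, the vascular partner of Kcnj8, changed by 0.46 (adjusted p = 0.67), Dpp10, a relative of Dpp6, by -0.01 and Amigo1, a partner of Kv2 channels, by 0.12 (adjusted p = 0.991 and 0.574).

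Long genes are of interest because the study examined gene length, so span was described by the annotated start and end. For expression the study did so in microarrays of cultured postmitotic granule neurons, which differ in cells and platform from these libraries. Of 20 tested members longer than 100 kb, 3 fell (Kcnj3, Kcnj6 and Kcnd2) and none rose, with a median change of -0.15, beside 4.51% lower, 2.9% higher and a median of 0.04 among 2172 genes of that length. Of 37 shorter members 2 fell and 2 rose, with a median of 0.03, beside 0.973%, 1.04% and 0.02 among 14900 genes. The span of Kcnd2 was 514 kb, that of Kcnj6 249 kb and that of Kcnj3 162 kb. Kcnk13, which rose, spans 98.2 kb and lies just under the cut, so the absence of a rise among the longer members depends on the threshold. Kcnb2 (436 kb) and Kcnq5 (564 kb) did not pass the test. Exons of 22 tested members overlap another gene model in the annotation, mostly on the opposite strand, among them Kcnj3, Kcnj6 and Kcnk1. So do those of Kcnd3, Kcnmb4 and Kcnma1, whose levels were set beside those of other genes above. The study ran RSEM with its default settings, which do not use strand, so reads of opposite-strand pairs cannot be told apart.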

How the data were processed

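RNA was measured in 14 mouse GNP libraries (WT 5, Het 5, Hom 4). The authors deposited 1 table of gene TPM values with 0 further sample columns, made with RSEM 1.2.15 and Bowtie 1.0.0 according to the submitters' processing notes (mm10). TPM sums to the same total in each library and keeps no depth, so no counting interval was given. Columns headed Con were taken as WT by number. The main test was limma 3.58.1 in R 4.3.3 with an intensity trend on log2(TPM + 1), with genotype and the study's sequencing batch as terms, over genes that reached a TPM of 1 in 4 or more libraries, two-sided, with Benjamini-Hochberg adjustment over all 17325 genes. The fold changes understate those of low genes because of the pseudocount of 1. The study's own test, Kruskal-Wallis, was an alternative, in exact form at 0.01. It was run on log2 values from which limma had removed the batch term, in place of the study's ComBat. The exact form does not allow for that removal. Members, lists and tests were chosen with earlier results of these data known. Some genes are not reported here. Otherwise named genes were all called members, those with unadjusted p under 0.05 in Hom against WT, the top 15 by mean TPM and the top tested gene of each subfamily. A few other members were named for their level or after their values were seen. The code was tested on simulated data. Symbols, spans and overlaps came from GENCODE vM21. Start regions came from RefSeq (GRCm38.p6). RefSeq protein sequences were not used here. Alternatives covered the pseudocount, filter, scaling, batch, array weights, genotypes fitted and each library left out.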

Additional observations from a re-analysis of the deposited data

Results flagged for a closer look

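In 4 of 84 groups of 4 or 5 libraries of a named gene, a library stood apart from the others by Dixon's criterion, where chance alone gives about 1 in 20. Kcnj11 was at 26.67 TPM in Hom 3, with 18.34 to 19.01 in the other Hom libraries. Kcnn1 was at 5.45 TPM in Het 5, with 2.54 to 3.19 in the other Het libraries. Kcnh4 was at 1.02 TPM in Hom 1, with 1.59 to 1.61 in the others. Kcnu1, a channel gene best known from sperm, was at 2.29 TPM in Het 2, with 0.71 to 1.01 in the other Het libraries. No value was in WT. Of these genes none was called in Hom against WT or in Het against WT by limma.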

How the results depend on the processing

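Adjusted p values come from limma and TPM gives no depth, so how far reads limit low genes such as Kcne1 and Kcnk13 is unknown. Kcnd2 kept its direction in every alternative run, as did Kcnj3 and Kcnk13, and lost the call only within a single batch, Kcnk13 being untested under the filter of mean TPM of at least 5. The count of lower genes in Hom against WT was 5, with 2 in batch 1 alone, 0 in batch 2 alone and 3 with only the 2 genotypes fitted, and ranged from 2 to 5 with a library left out (3 without WT 3 or Hom 1, 2 without Hom 2 or Hom 4). The count of higher genes was 2, with 1 under the filter of TPM above 0, 0 for mean TPM of at least 5, 1 with Het 3 in batch 2, 1 in batch 1 alone, 0 in batch 2 alone, 1 with only the 2 genotypes, 4 with array weights, 1 with the endothelial and 1 with the astroglial covariate, and ranged from 1 to 3 with a library left out. Every single omission except that of WT 4, Het 5 or Hom 3 gave 1. With the endothelial covariate 1 gene was lower in Het against WT (Kcnd2, -0.88, adjusted p = 0.0481). The count of lower genes in Hom against Het was 1, with 2 under median-ratio scaling, quantile normalization, array weights and the endothelial covariate, 0 within batch 1 or batch 2, and 1 to 2 with a library left out (2 without Hom 2). Kcne1 lost its call with Het 3 in batch 2 (adjusted p = 0.0519). The cause of these changes was not tested.

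Whether replicate numbers pair the samples was not settled. Deviations of the 13 same-numbered pairs correlated from -0.235 to 0.264, 3 of them over 0.1, beside -0.301 to 0.333 for the 52 other pairs. The other pairs mix libraries of the same and of different batches, so these ranges cannot exclude pairing. With the replicate number as a block, 4 genes were lower and 2 higher, and Kcnj11 (-0.12), Kcnab2 (-0.07) and Kcnt1 (0.12) turned sign.

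Sign changes were followed for the genes of the naming rule in Hom against WT, and in Het against WT only for those of them called or with unadjusted p under 0.05 in Hom against WT. Signs turned only in genes not called in that comparison. In Het against WT these were Kcnq5 (0.03), Kcna1 (0.11) and Kcns2 (0.02) in batch 1 alone, and Kcnd3 (-0.15) in batch 2 alone. With a library left out these changes ran from -0.18 to 0.01 for Kcnq5, -0.21 to 0.08 for Kcna1, -0.16 to 0.07 for Kcns2. Of the rule's genes in Hom against WT, batch 2 alone turned Kcne1l (0.14), Kcnc1 (-0.18), Kcnj11 (-0.25) and Kcnt1 (0.40), and batch 1 alone Kcnk2 (0.05), Kcnh2 (0.11) and Kcnu1 (-0.27). The endothelial covariate turned Kcnc1 (-0.11), Kcnj11 (-0.08) and Kcnab2 (-0.22), and the astroglial covariate Kcne1l (0.14), Kcnc1 (-0.19), Kcnj11 (-0.05), Kcnab2 (-0.17) and Kcnt1 (0.38). With a library left out the changes ran from -0.03 to 0.15 for Kcnc1, -0.02 to 0.2 for Kcnj11, -0.17 to 0.03 for Kcnh2, -0.0044 to 0.08 for Kcnab2, -0.35 to 0.33 for Kcnt1.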
